A study of Gossypium hirsutum with 18 samples.

Results

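Roots of the moderately resistant cotton WMJJ (Wild Mexico Jack Jones) that never met the nematode were compared with equally nematode-free roots of the susceptible cultivar Acala SJ-2 (SJ2). The comparison used 3 WMJJ_ctl and 3 SJ2_ctl libraries, 6 of the 18 RNA-seq libraries of the study, and covered every gene with a mean deposited value of at least 1 over the 18 libraries, 46813 of 54508 genes. At that limit Gohir.A10G129500 was inside with a mean of 1.00067, and Gohir.D10G073700 was outside with 0.999877. All plants were *Gossypium hirsutum* kept in soil pots in a greenhouse; "ctl" seedlings aged 12 days received water only, "rkn" seedlings of the same age received 5000 J2 juveniles of *Meloidogyne incognita* per plant, and roots were taken when plants were 23 days old. The other groups drawn on here are WMJJ_rkn and SJ2_rkn, the infested roots of the same genotypes, and NemX_rkn and NemX_ctl, from the resistant cultivar Acala NemX, with 3 libraries in each. The labels and the methods differ on how many plants were sampled, and nothing says how plants were divided among the 3 biological replicates. Each genotype is 1 line, so a difference belongs to the pair of lines and cannot be assigned to their resistance.

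*M. incognita*, the southern root-knot nematode, enters roots as a juvenile and feeds from giant cells inside galls. Plants recognise such parasites in part through NBS-LRR proteins, receptors inside the cell that trigger defense, and resistance in a line is often mapped as a chromosome region before its gene is known. The comparison asked which transcripts already differ between a partly resistant and a susceptible root before infestation. The study places the resistance of WMJJ on chromosome D02 and that of NemX on A11 and D11. Upland cotton is an allotetraploid, so most genes have a copy in the A and in the D subgenome, and the letter and number in a Gohir identifier give the chromosome. Reads of all genotypes were pseudo-aligned to transcripts of the genotype TM-1, and close copies or tandem neighbours may share reads, which leaves the value of a single copy uncertain. The sources used here annotate 5 genes, so the others are given by identifier with no role, root marker genes could not be checked, and no list of marker genes of other cells could be set beside a result.

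Totals of the deposited values ran between 957278 and 987182 in WMJJ_ctl and between 852215 and 901899 in SJ2_ctl, with no overlap. Libraries of 1 group correlated at 0.943 to 0.957 in WMJJ_ctl and at 0.948 to 0.965 in SJ2_ctl over all tested genes, which are not independent of each other. The median SD of the log2 value over genes was 0.259 in WMJJ_ctl and 0.244 in SJ2_ctl. The values are normalized and hold no read counts, so the reads behind a single value are not known, and a value of 0 is only a listing at 0. In the study's own table the first WMJJ_ctl library had the lowest share of pseudo-aligned reads of all, and the third WMJJ_ctl library the next lowest. The third libraries of WMJJ_ctl and of SJ2_ctl were the deepest of their groups. Some libraries were made with a stranded kit, without a statement of which ones.

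WMJJ and SJ2 roots differed widely without the nematode. With limma on log2(value + 0.5), calls needed a Benjamini-Hochberg adjusted p under 0.01 together with a log2 fold change of more than 1 in either direction. In WMJJ_ctl 3635 genes (7.76% of those tested) were higher and 2723 (5.82%) were lower than in SJ2_ctl, 13.6% either way. The median log2 fold change was 1.66 among the higher and -1.56 among the lower genes, against -0.0326 over all tested genes. Changes beyond 3 on the log2 scale were found for 346 higher and 224 lower genes. The 3 WMJJ_ctl libraries lay apart from the 3 SJ2_ctl libraries for 3620 of the higher genes (99.6%) and for 2706 of the lower ones (99.4%); over all tested genes they lay apart upward for 20% and downward for 21.2%. A call leaves little room for overlap, so nothing further is read from these shares. The balance of directions depended on scaling: 57.2% of calls were higher in WMJJ_ctl on the values as deposited, but 45.9% after each library was brought to an equal total, which lowered the median of all genes by 0.14 and gave 3086 higher and 3637 lower calls. With each library left out in turn, 3163 to 3469 higher and 2211 to 2407 lower genes were called.

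**Figure D1:**
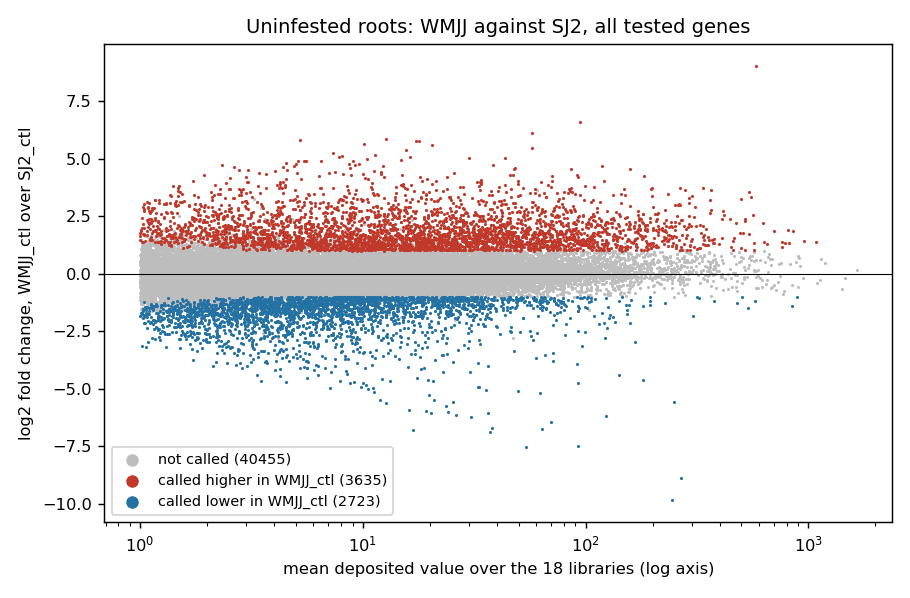
Log2 fold change of WMJJ_ctl over SJ2_ctl (vertical axis) against the mean deposited value over the 18 libraries (horizontal log axis), 1 point per tested gene. Of 46813 genes, 3635 were called higher and 2723 lower in WMJJ_ctl, and the higher calls crowd toward the right.

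The direction of the calls changed with level. When tested genes were divided into 4 equal bins by mean value, in the bin with the lowest means, 1 to 3.45, 4.68% were higher and 6.41% lower in WMJJ_ctl. In the bin with the highest means, 20.8 to 1650, 13.5% were higher and 4.13% lower. The second bin had 5.49% higher and 7.43% lower, the highest share of lower genes among the 4, and the third had 7.37% higher and 5.3% lower. With equal library totals the shares were 4.26% higher and 8.23% lower in the lowest bin and 11.6% higher and 5.43% lower in the highest one.

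The largest of the increases were in genes listed at or near 0 in SJ2_ctl and well above it in WMJJ_ctl. Gohir.A05G283000, the gene with the largest increase, had values of 394, 495 and 475 in WMJJ_ctl against 2.06, 0 and 0 in SJ2_ctl. Its log2 fold change was 9.04 ± 0.91 (standard error, adjusted p = 1.78e-07). All WMJJ_ctl libraries were far above all SJ2_ctl libraries. In infested roots the same gene had 336, 713 and 186 in WMJJ_rkn against 2.61, 4.86 and 142 in SJ2_rkn, where the third SJ2_rkn library stood far above its partners. The log2 fold change there was 4.73 (adjusted p = 0.0011), and the call was lost without SJ2_rkn 1 (adjusted p = 0.0119) or SJ2_rkn 2 (adjusted p = 0.0108). NemX_ctl had 643, 958 and 1162, above all WMJJ_ctl libraries. For Gohir.D10G206900 the values were 114, 119 and 135 in WMJJ_ctl against 0.229, 1.46 and 0.921 in SJ2_ctl, a log2 fold change of 6.61 ± 0.61 (adjusted p = 4.92e-08). The same SJ2_rkn library stood out again, with 12.3 beside 0.401 and 0.471, while WMJJ_rkn had 103, 112 and 118.

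Other leading genes set WMJJ apart from both Acala lines. Gohir.A11G008100 had 223, 218 and 278 in WMJJ_ctl against 4.17, 1.49 and 4.07 in SJ2_ctl, with a log2 fold change of 6.10 ± 0.32 (adjusted p = 2.35e-11). NemX_ctl was lower still, at 0.261, 0.485 and 0.305. Gohir.D07G185200 was at 31.3, 30.0 and 34.5 in WMJJ_ctl against 0, 0.199 and 0 in SJ2_ctl, a log2 fold change of 5.86 ± 0.28 (adjusted p = 5.31e-12). It was listed at 0 in every NemX_ctl and SJ2_rkn library and reached 37.6, 54.1 and 39.6 in WMJJ_rkn, so the difference followed the genotype in both treatments. Gohir.A04G019550 followed the same course, with 26.5, 35.8 and 22.9 in WMJJ_ctl against 0, 0 and 0.266 in SJ2_ctl and a log2 fold change of 5.62 ± 0.38 (adjusted p = 7.51e-10). Its WMJJ_rkn values were 23.1, 54.4 and 18.2 against 0, 0 and 0.228 in SJ2_rkn.

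For Gohir.A01G082700, WMJJ_ctl had 30.0, 22.7 and 30.4, and all SJ2_ctl libraries were listed at 0 (adjusted p = 3.26e-10, no fold given). In infested roots its WMJJ values were 2.45, 3.03 and 2.90, against 0.251, 0 and 0.417 in SJ2_rkn. Gohir.D09G014700 had 38.3, 32.5 and 32.7 in WMJJ_ctl against 0, 0.185 and 0.246 in SJ2_ctl, with a log2 fold change of 5.78 ± 0.29 (adjusted p = 9.49e-12). For this gene NemX_ctl, at 39.6, 24.2 and 26.2, was near WMJJ_ctl. Gohir.D10G176100 varied within WMJJ_ctl, at 21.6, 46.4 and 65.4, and still lay above 0.574, 0 and 0.307 in SJ2_ctl (log2 fold change 5.76 ± 0.39, adjusted p = 6.15e-10).

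The genes with the largest decrease were listed at 0 or below 1 in WMJJ_ctl and at far higher values in both other genotypes. Gohir.D13G229300 had 0.320, 0 and 0 in WMJJ_ctl against 603, 522 and 523 in SJ2_ctl, a log2 fold change of -9.86 ± 0.24 (adjusted p = 1.16e-16). NemX_ctl had 404, 493 and 299, on the side of SJ2. In infested roots it was 0, 0 and 0.411 in WMJJ_rkn against 144, 227 and 183 in SJ2_rkn. Gohir.D01G055300 had 0, 0 and 0.158 in WMJJ_ctl against 282, 364 and 176 in SJ2_ctl (log2 fold change -8.91 ± 0.27, adjusted p = 3.77e-15) and was as far down in infested roots, at 0, 0 and 0.246 in WMJJ_rkn against 447, 283 and 420.0 in SJ2_rkn. These folds are on the log2(value + 0.5) scale, where a gene near 0 has its fold set in part by the added 0.5: with 0.1 or 1 added, that of Gohir.D13G229300 was -11.73 or -8.97.

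Gohir.A04G056500 was listed at 0 in all 6 WMJJ libraries. SJ2_ctl had 62.0, 56.8 and 57.9 and SJ2_rkn 49.3, 62.1 and 53.7 (adjusted p = 7.49e-17 in uninfested roots). NemX_ctl was level with SJ2_ctl, at 63.3, 49.6 and 59.2. Gohir.D12G256000 was listed at 0 in all WMJJ_ctl libraries, against 94.0, 84.9 and 101 in SJ2_ctl (adjusted p = 9.06e-16). Gohir.A05G303900 had 0, 0 and 0.152 in WMJJ_ctl against 91.7, 90.1 and 119 in SJ2_ctl, and Gohir.D03G087100 had 0, 0 and 0.153 against 57.5, 58.5 and 55.0. Their log2 fold changes were -7.52 ± 0.16 (adjusted p = 2.54e-17) and -6.72 ± 0.23 (adjusted p = 2.47e-14). Gohir.D09G057950 was called in uninfested roots and not in infested ones: WMJJ_ctl was listed at 0 throughout against 40.9, 49.4 and 86.7 in SJ2_ctl (adjusted p = 9.25e-08), and WMJJ_rkn was listed at 0 against 5.44, 0 and 8.89 in SJ2_rkn (adjusted p = 0.0105, not called). Without SJ2_rkn 2, the library at 0, that gene was called in infested roots too (adjusted p = 1.62e-07).

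Some called genes were listed at 0 in a whole group. Of the genes called lower, 136 were at 0 in all WMJJ_ctl libraries, and 88 of these were also at 0 in all WMJJ_rkn libraries. NemX_ctl was above 0 in every library for 127 of the 136 and at 0 in every library for 5. A value above 0 is usual: a single NemX_ctl library had 52359 to 53026 of the 54508 genes of the table above 0. The share of tested genes above 0 in every NemX_ctl library was not counted. Genes at 0 in WMJJ_ctl also pass the filter only through other groups, so the 127 are not read as likeness to SJ2. Of the genes called higher, 90 were at 0 in all SJ2_ctl libraries, and 39 of these were at 0 in all SJ2_rkn libraries as well. NemX_ctl was above 0 in every library for 27 of the 90 and at 0 in every library for 50. Genes at 0 in SJ2_ctl likewise pass the filter only through other groups. The share of tested genes at 0 in every NemX_ctl library was not counted either, so the 50 are not read as likeness to SJ2. Over all tested genes, called or not, 150 were at 0 in WMJJ_ctl and above 0 in each SJ2_ctl library, and 103 the other way round. Gohir.A07G185100 was one of the 90, with 22.5, 20.6 and 4.33 in WMJJ_ctl and 0 in SJ2_ctl (adjusted p = 1.59e-07), and it was above 0 in infested roots of both genotypes, at 33.3, 33.5 and 16.1 in WMJJ_rkn against 3.41, 2.68 and 1.90 in SJ2_rkn. Gohir.D04G090233 was another, but its WMJJ_ctl values of 104, 13.9 and 2.87 were spread widely.

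**Figure D2:**
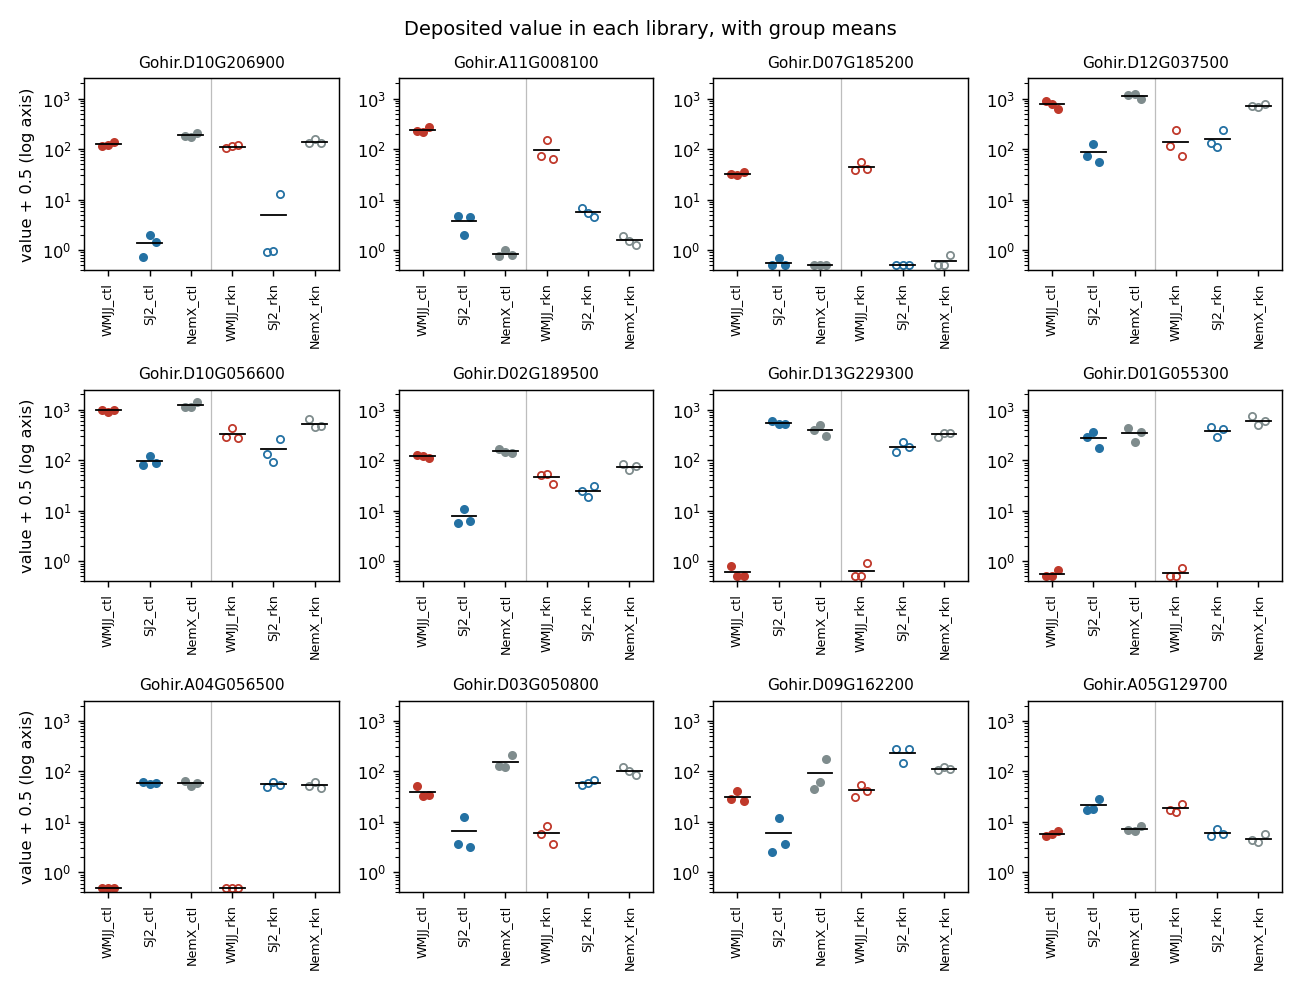
Deposited value plus 0.5 (log axis) of 12 named genes in each library, filled points for uninfested and open points for infested roots, with black bars at the group means; red is WMJJ, blue SJ2 and grey NemX. Gohir.A04G056500 sits at the floor in all WMJJ libraries, while Gohir.D03G050800 is higher in WMJJ_ctl than in SJ2_ctl and lower in WMJJ_rkn than in SJ2_rkn.

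For 3 of the 4 genes with the largest rise in level, all NemX_ctl libraries lay above all WMJJ_ctl libraries. Gohir.D10G056600 had 992, 903 and 1002 in WMJJ_ctl against 80.8, 122 and 86.3 in SJ2_ctl, a log2 fold change of 3.34 ± 0.28 (adjusted p = 1.45e-08). NemX_ctl had 1105, 1122 and 1416. In infested roots the values of this gene were 289.8, 427 and 279 in WMJJ_rkn against 130.3, 90.9 and 266 in SJ2_rkn, a log2 fold change of 1.15 (adjusted p = 0.00856) that was not called without WMJJ_rkn 1, 2 or 3 or without SJ2_rkn 1 or 2 (adjusted p = 0.0127 to 0.0723). Gohir.D12G037500 had 901, 789 and 612 in WMJJ_ctl against 72.9, 128 and 54.3 in SJ2_ctl (log2 fold change 3.24 ± 0.34, adjusted p = 3.13e-07). In infested roots WMJJ and SJ2 overlapped for it, at 114, 234 and 73.2 in WMJJ_rkn against 131, 109.8 and 235 in SJ2_rkn, and the uninfested minus the infested log2 fold change was 3.50 ± 0.48 (adjusted p = 5.19e-05). Such a difference of folds was called upward for 3.95% and downward for 1.12% of all tested genes, 5.08% either way.

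Gohir.D05G124900 had 1055, 1127 and 836 in WMJJ_ctl against 316, 437 and 371 in SJ2_ctl, a log2 fold change of 1.42 ± 0.19 (adjusted p = 5.21e-06). It held at 1055, 1057 and 838 in WMJJ_rkn, where SJ2_rkn had 916, 735 and 934. Gohir.D11G345700 had 1170, 819 and 1273 in WMJJ_ctl against 418, 305 and 597 in SJ2_ctl (log2 fold change 1.33 ± 0.28, adjusted p = 0.000926), and NemX_ctl, at 321, 246 and 205, was on the side of SJ2.

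The largest falls in level were more uneven among libraries. Gohir.D07G224000 had 231, 195 and 347 in WMJJ_ctl against 664, 677 and 1563 in SJ2_ctl, where the third library, the deepest of its group, stood far above the others (log2 fold change -1.83 ± 0.36, adjusted p = 0.000512). Gohir.D04G065400 had 518, 388 and 255 in WMJJ_ctl against 796, 1022 and 888 in SJ2_ctl (log2 fold change -1.27 ± 0.26, adjusted p = 0.000945). Both genes overlapped between WMJJ_rkn and SJ2_rkn. Gohir.D09G088800 had 972, 647 and 708 in WMJJ_ctl against 1187, 1533 and 2054 in SJ2_ctl, with a log2 fold change of -1.02 ± 0.23 (adjusted p = 0.0019). Its call was lost without WMJJ_ctl 2 (-0.90), WMJJ_ctl 3 (-0.97) or SJ2_ctl 3 (-0.82).

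The 5 annotated genes gave a mixed picture. Gohir.A11G297600 and Gohir.D11G312800 are TIR-NBS-LRR genes, which code for receptors with a Toll/interleukin-1 receptor domain, and the study matched both to the same Arabidopsis resistance protein. The study kept them for a higher level in uninfested NemX than in SJ2, and it dropped candidates with enhanced expression in WMJJ. That choice used these same libraries, so the missing WMJJ calls and the place of NemX_ctl are no independent evidence. Gohir.A11G297600 had 92.2, 100.1 and 76.0 in WMJJ_ctl against 41.2, 55.4 and 40.6 in SJ2_ctl. The groups did not overlap and the adjusted p was 0.000281, but the log2 fold change of 0.96 ± 0.18 stayed under the limit of 1; without WMJJ_ctl 3 it was 1.08 and without SJ2_ctl 2 it was 1.11, both called. NemX_ctl had 126, 115 and 93.4. Gohir.D11G312800 was low in both, at 5.29, 5.72 and 3.99 in WMJJ_ctl against 6.81, 7.16 and 7.52 in SJ2_ctl, and was not called (log2 fold change -0.49 ± 0.19, adjusted p = 0.064). NemX_ctl, at 25.4, 33.6 and 27.4, was above both.

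A close neighbour by number behaved otherwise. Gohir.D11G312600 had 0, 0.775 and 0.948 in WMJJ_ctl against 91.4, 117 and 106 in SJ2_ctl (log2 fold change -6.75 ± 0.29, adjusted p = 1.3e-12), and NemX_ctl had 120.5, 141 and 108. In infested roots the gap was as wide, at 0, 0 and 0.269 in WMJJ_rkn against 41.7, 57.0 and 50.6 in SJ2_rkn. In infested roots Gohir.D11G312800 itself had 4.55, 3.999 and 3.25 in WMJJ_rkn against 7.36, 10.1 and 8.94 in SJ2_rkn, a log2 fold change of -1.07 (adjusted p = 0.000566) that was not called without WMJJ_rkn 3 (-0.95) or SJ2_rkn 2 (-0.97).

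The other 3 annotated genes carry the category "response to nematode", assigned by the study, which picked them on these libraries, so their direction is no independent evidence. Gohir.D01G218500 had 32.0, 41.9 and 31.7 in WMJJ_ctl against 16.6, 20.4 and 10.4 in SJ2_ctl, a log2 fold change of 1.17 ± 0.19 (adjusted p = 7e-05), which was 0.90 and not called without SJ2_ctl 3. NemX_ctl stood higher, at 95.8, 85.3 and 83.0. In infested roots the order turned, with 66.4, 69.2 and 61.5 in WMJJ_rkn against 92.8, 91.7 and 85.5 in SJ2_rkn (log2 fold change -0.45, adjusted p = 0.136), and the 2 folds differed by 1.62 ± 0.27 (adjusted p = 0.000327).

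Gohir.A06G146800 had 4.56, 8.74 and 7.43 in WMJJ_ctl against 0.856, 2.09 and 0.245 in SJ2_ctl (log2 fold change 2.38 ± 0.39, adjusted p = 7.6e-05). NemX_ctl had 10.7, 15.5 and 13.7, and WMJJ_rkn and SJ2_rkn overlapped. Gohir.A06G159701 overlapped in uninfested roots, at 17.5, 32.9 and 36.6 in WMJJ_ctl against 16.3, 29.2 and 23.5 in SJ2_ctl (log2 fold change 0.30 ± 0.26, adjusted p = 0.448). In infested roots it was lower in WMJJ, at 31.2, 38.8 and 30.3 in WMJJ_rkn against 97.9, 66.9 and 127 in SJ2_rkn (log2 fold change -1.49 ± 0.26, adjusted p = 0.000519).

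The infested roots of WMJJ and SJ2 gave a second comparison of the same lines that shares no library with the first, though 1 fit lends both its estimate of the spread. There 1217 genes (2.6%) were higher and 1342 (2.87%) lower in WMJJ_rkn than in SJ2_rkn, 5.47% either way. Of the genes called higher in WMJJ_ctl, 786 were called higher again, which is 21.6% of the uninfested list and 64.6% of the infested one, against 2.6% of all tested genes. Of the genes called lower, 816 were called lower again, 30% of the uninfested and 60.8% of the infested list, against 2.87%. Among the genes not called in uninfested roots, 1.06% were higher and 1.18% lower in WMJJ_rkn. The median infested log2 fold change was 0.417 for the higher list, with 74.7% of its genes above 0, and -0.682 for the lower list, with 84.6% below 0 (48% of all tested genes). Over all tested genes the median was 0.02, and 52% lay above 0. Most genes called in infested roots were also called in the water-only roots, while most of the uninfested calls were not called in infested roots.

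**Figure D3:**
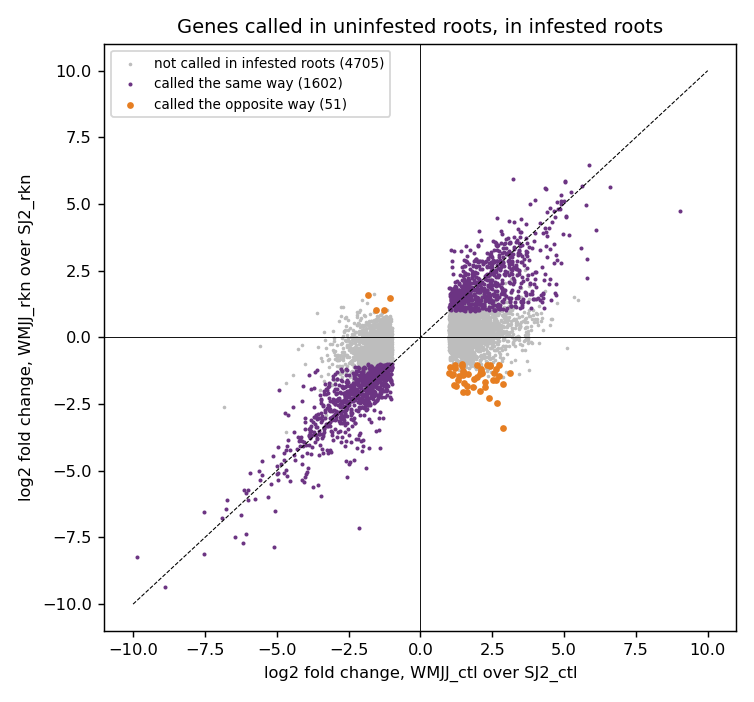
Log2 fold change of WMJJ_rkn over SJ2_rkn (vertical axis) against that of WMJJ_ctl over SJ2_ctl (horizontal axis) for the 6358 genes called in uninfested roots, with the line of equality dashed. Of these, 1602 were called the same way in infested roots, 51 the opposite way and 4705 not at all.

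Few genes changed sides between the treatments. Higher in WMJJ_ctl and lower in WMJJ_rkn were 47 genes (1.29% of the higher list, against 2.87% of all genes called lower in infested roots), and lower in WMJJ_ctl and higher in WMJJ_rkn were 4 (0.147%, against 2.6%). The count of 47 was 24 without WMJJ_rkn 1, 78 without WMJJ_rkn 2, 28 without WMJJ_rkn 3, 28 without SJ2_rkn 1 and 27 without SJ2_rkn 3. The count of 4 was 2 without WMJJ_ctl 2, SJ2_ctl 2 or SJ2_ctl 3. Gohir.D03G050800 had the widest swing: 50.3, 32.2 and 34.1 in WMJJ_ctl against 3.19, 12.0 and 2.67 in SJ2_ctl, then 5.34, 7.89 and 3.18 in WMJJ_rkn against 54.2, 57.3 and 65.4 in SJ2_rkn. Its log2 fold changes of 2.87 ± 0.37 and -3.39 ± 0.37 differed by 6.27 ± 0.53 (adjusted p = 3.26e-07). NemX was high in both treatments, at 123, 101 and 84.4 in NemX_rkn against 129, 123 and 210.4 in NemX_ctl.

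Gohir.D09G162200 had 27.7, 39.8 and 25.5 in WMJJ_ctl against 2.02, 11.6 and 3.18 in SJ2_ctl. Infested, it had 30.6, 53.8 and 40.9 in WMJJ_rkn against 281, 145 and 273 in SJ2_rkn, so the turn came with the level in SJ2 while WMJJ overlapped between treatments. Gohir.D09G048900 had 10.998, 16.2 and 8.92 in WMJJ_ctl against 2.04, 1.66 and 1.75 in SJ2_ctl, and 3.99, 9.81 and 4.49 in WMJJ_rkn against 29.0, 27.6 and 30.9 in SJ2_rkn.

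In the other direction, Gohir.A05G129700 had 4.86, 5.18 and 5.99 in WMJJ_ctl against 16.8, 17.5 and 28.3 in SJ2_ctl (log2 fold change -1.83 ± 0.23, adjusted p = 2.64e-06). Its order was turned in infested roots, with 16.5, 15.4 and 22.0 in WMJJ_rkn against 4.68, 6.74 and 5.25 in SJ2_rkn (1.61 ± 0.23, adjusted p = 3.93e-05). Gohir.A11G268900 had 3.56, 4.63 and 4.35 in WMJJ_ctl against 13.7, 12.0 and 13.7 in SJ2_ctl, and 8.33, 10.4 and 8.41 in WMJJ_rkn against 5.12, 3.94 and 3.46 in SJ2_rkn. Its infested log2 fold change of 1.04 (adjusted p = 0.0014) went to 0.94 without WMJJ_rkn 2 and to 0.93 without SJ2_rkn 3, neither called. Gohir.A07G227500 had 3.82, 4.34 and 4.66 in WMJJ_ctl against 6.32, 9.64 and 13.6 in SJ2_ctl (log2 fold change -1.06, adjusted p = 0.00553), a call lost without any of WMJJ_ctl 1, 2 and 3, SJ2_ctl 2 and SJ2_ctl 3 (adjusted p = 0.0112 to 0.0463).

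NemX_rkn libraries, which the uninfested comparison does not use, place the third genotype in infested roots. Of the genes higher in WMJJ_ctl, 685 (18.8%, against 2.88% of all tested genes) were higher and 46 (1.27%, against 1.81%) lower in NemX_rkn than in SJ2_rkn. Between WMJJ_rkn and NemX_rkn this list went both ways: 580 (16%, against 3.45%) were higher and 463 (12.7%, against 4.96%) lower in WMJJ_rkn, with a median log2 fold change of -0.095 against 0.0151 over all genes. Of the genes lower in WMJJ_ctl, 221 (8.12%) were lower and 76 (2.79%) higher in NemX_rkn than in SJ2_rkn, and 782 (28.7%) were lower and 68 (2.5%) higher in WMJJ_rkn than in NemX_rkn. The 221 became 130 without SJ2_rkn 1 and 145 without SJ2_rkn 2, the 76 became 46 without SJ2_rkn 1 and 43 without NemX_rkn 1, and the 68 became 42 without WMJJ_rkn 1 and 36 without WMJJ_rkn 3. Among the 786 genes higher in both treatments, 431 set WMJJ_rkn apart from NemX_rkn with no call between NemX_rkn and SJ2_rkn, and 155 set both apart from SJ2_rkn with no call between them. Among the 816 lower in both, these numbers were 567 and 81. These placements rest on the same WMJJ_rkn and SJ2_rkn libraries as the calls of the infested comparison.

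The same lists were read in NemX alone, infested against uninfested, which also shares no library with the uninfested comparison of WMJJ and SJ2. Of the genes higher in WMJJ_ctl, 172 (4.73%, against 0.666% of all tested genes) were lower in NemX_rkn than in NemX_ctl, with a median log2 fold change of -0.298 against -0.0211 over all genes. Of the genes lower in WMJJ_ctl, 88 (3.23%, against 0.568%) were higher in NemX_rkn, with a median of 0.13. The 172 became 99 without NemX_rkn 1, 104 without NemX_rkn 2, 80 without NemX_rkn 3, 80 without NemX_ctl 1 and 82 without NemX_ctl 2. The 88 became 52 without NemX_rkn 1, 43 without NemX_rkn 3 and 46 without NemX_ctl 1.

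D02 had the largest share of called genes among the chromosomes, by a small margin. On D02 154 of 1745 tested genes (8.83%) were higher and 128 (7.34%) lower in WMJJ_ctl, 16.2% in all, against 13.6% over all genes. The other chromosomes lay between 12% on D07 and 15.5% on A05. A11, at 13.9%, and D11, at 12.7%, were near the whole. The A subgenome, at 13.8%, and the D subgenome, at 13.4%, lay close together. D02 remained at 16.8% with equal library totals and at 16.7% with a mean of at least 5.

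**Figure D4:**
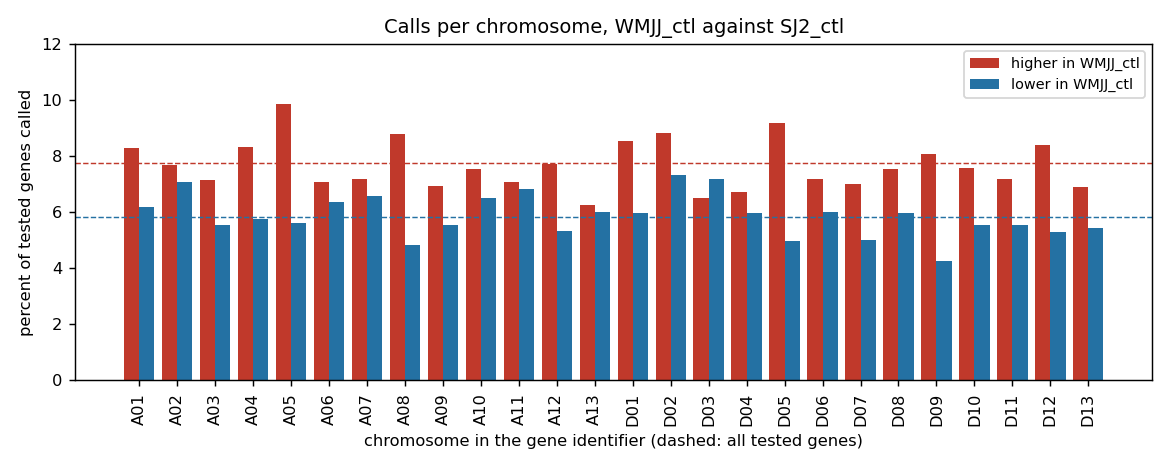
Percent of tested genes called higher (red) and lower (blue) in WMJJ_ctl than in SJ2_ctl, per chromosome, with dashed lines for all tested genes at 7.76% and 5.82%. D02 has 8.83% higher and 7.34% lower, and A05 has 9.86% higher and 5.6% lower.

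The share of D02 genes called was raised near one end of the identifier order, though most D02 calls lay elsewhere. When each chromosome was divided into windows of 50 tested genes in the order of the identifiers, an order not checked against an annotation, the 922 full windows had a median of 7 called genes. The highest count, 21, was in the second window of D02, Gohir.D02G007001 to Gohir.D02G011866, with 9 higher and 12 lower genes. The next 3 windows had 11, 14 and 11 calls, and windows elsewhere also reached such counts, for example 18 on A02 and 14 on A01. In infested roots, where the median window had 2 called genes, these 4 D02 windows had 12, 10, 13 and 10. They were 4 of the 8 windows with 10 or more. That limit equals the lowest count of the 4, so their reaching it carries no weight. The 4 windows were singled out after their values were seen, so they are described with no test. Over their 200 genes, Gohir.D02G007001 to Gohir.D02G035600, 57 were called in uninfested roots (28.5%, against 13.6% of all tested genes), 16 higher and 41 lower. In infested roots 45 were called (22.5%, against 5.47%), 12 higher and 33 lower. Of all tested genes, 7.76% were higher and 5.82% lower in uninfested roots, and 2.6% and 2.87% in infested roots. Leaving out each library in turn gave 46 to 57 calls among the 200 in uninfested and 37 to 47 in infested roots. In infested roots, 42 of the 200 (21%, against 8.41%) set WMJJ_rkn apart from NemX_rkn, and 16 (8%, against 4.69%) set NemX_rkn apart from SJ2_rkn. The former reuses the WMJJ_rkn and the latter the SJ2_rkn libraries, whose calls had been seen when the windows were singled out. Neither is separate support.

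**Figure D5:**
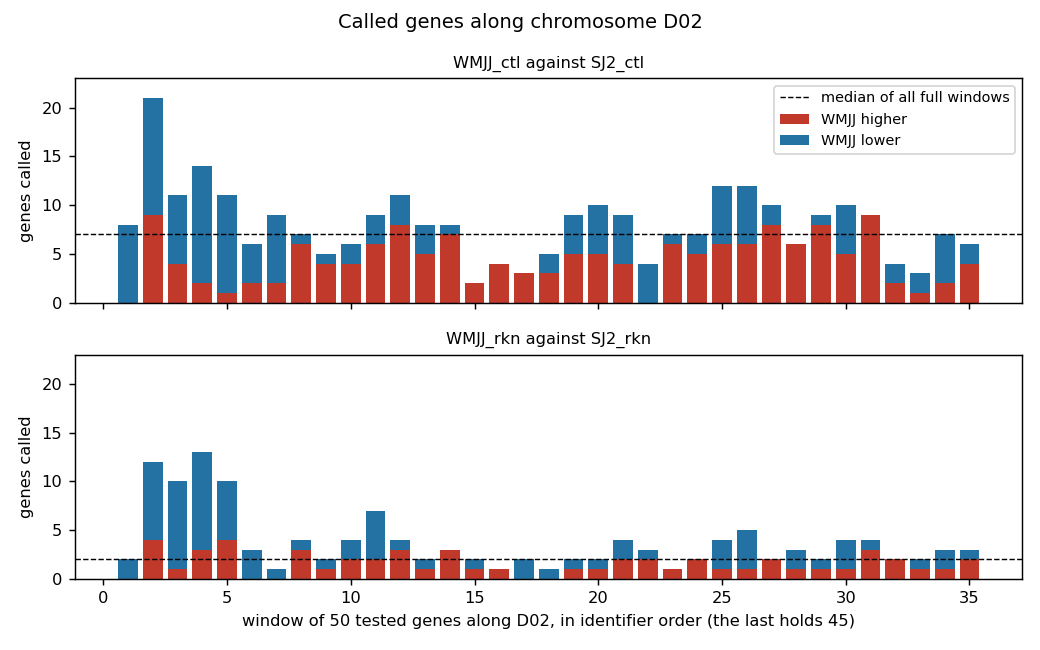
Number of called genes in windows of 50 tested genes along D02, in identifier order, for uninfested (top) and infested roots (bottom); red is higher and blue lower in WMJJ, and dashed lines are the medians of all full windows, 7 and 2. Windows 2 to 5 hold 21, 11, 14 and 11 calls in uninfested and 12, 10, 13 and 10 in infested roots.

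In that stretch of D02, 33 genes were called alike in both treatments, 7 higher and 26 lower. Over all 46813 tested genes, 1602 were called alike, 786 higher and 816 lower. The 26 lower genes had a median log2 fold change of -2.69 in uninfested and -2.74 in infested roots, 3 of them were listed at 0 in all 6 WMJJ libraries, and all 26 were above 0 in every NemX_ctl library. Their SJ2_ctl means ran from low, 1.96, to high, 205. A value above 0 in NemX_ctl is usual, since a single library had 52359 to 53026 of the 54508 genes of the table above 0. The NemX_ctl mean lay below that of SJ2_ctl for some of the 26, such as Gohir.D02G034100 (9.58 against 83.2). It lay above for others, such as Gohir.D02G011150 (69.8 against 39.6). Gohir.D02G011866, named by the rule for D02, was at 0 in all WMJJ_ctl libraries against 11.03, 17.1 and 9.15 in SJ2_ctl (adjusted p = 1.57e-10). NemX_ctl had 41.9, 40.2 and 35.0. The next examples were picked after their values were seen. Gohir.D02G011150 had 2.37, 3.02 and 1.41 in WMJJ_ctl against 40.8, 43.3 and 34.8 in SJ2_ctl, and Gohir.D02G021500, an abundant one, had 69.7, 90.9 and 60.0 against 169, 249 and 132. Gohir.D02G021700 was higher, at 16.2, 14.4 and 13.8 in WMJJ_ctl against 1.23, 1.67 and 0.615 in SJ2_ctl.

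Outside the stretch, the strongest D02 genes were of other kinds. Gohir.D02G196100 had 18.001, 25.6 and 19.0 in WMJJ_ctl against 0, 0.304 and 0 in SJ2_ctl (log2 fold change 5.17 ± 0.40, adjusted p = 4.35e-09) and was also higher in infested roots, at 43.8, 49.2 and 36.7 in WMJJ_rkn against 2.53, 4.23 and 1.39 in SJ2_rkn. Gohir.D02G189500 had 129, 123 and 109 in WMJJ_ctl against 5.29, 10.5 and 5.77 in SJ2_ctl (log2 fold change 4.04 ± 0.22, adjusted p = 4.17e-11). It narrowed to 50.8, 53.0 and 33.6 in WMJJ_rkn against 24.2, 18.4 and 29.8 in SJ2_rkn, and the 2 folds differed by 3.13 ± 0.31 (adjusted p = 1.75e-06). Gohir.D02G092600 had 16.0, 23.7 and 28.7 in WMJJ_ctl against 0.410, 1.85 and 1.11 in SJ2_ctl (log2 fold change 3.91 ± 0.35, adjusted p = 3.05e-08).

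Gohir.D02G146050 was listed at 0 in all 6 WMJJ libraries, against 12.9, 16.5 and 9.03 in SJ2_ctl and 19.7, 13.7 and 13.1 in SJ2_rkn. Gohir.D02G044833 had 0, 0.426 and 0.161 in WMJJ_ctl against 20.6, 20.3 and 8.07 in SJ2_ctl (log2 fold change -4.53 ± 0.59, adjusted p = 4.95e-06).

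Called genes were also counted as neighbours along a chromosome. Runs of 3 or more consecutive tested genes numbered 80 for the higher direction, with 270 genes, and 27 for the lower, with 87 genes; counted over all genes of the table, with an untested gene ending a run, they were 68 and 19. The longest higher runs had 6 genes, Gohir.A03G208800 to Gohir.A03G209200 and Gohir.D01G163100 to Gohir.D01G163900. In the first of these, Gohir.A03G208900 had 15.02, 12.5 and 17.2 in WMJJ_ctl against 2.81, 2.23 and 3.05 in SJ2_ctl (log2 fold change 2.27 ± 0.28, adjusted p = 2.77e-06), and Gohir.A03G208875 had 6.48, 6.53 and 7.35 against 0.409, 0.554 and 1.74 (2.50 ± 0.36, adjusted p = 1.69e-05). Gohir.A03G209100, at 11.8, 12.6 and 13.6 against 4.69, 4.53 and 4.04, and Gohir.A03G209200, at 1.95, 2.29 and 3.91 against 0.222, 0 and 0.684, had log2 fold changes of 1.42 and 2.05. The other members were less firm. Gohir.A03G208800 (1.46) lost its call without WMJJ_ctl 2, WMJJ_ctl 3, SJ2_ctl 1 or SJ2_ctl 2 (adjusted p = 0.0155 to 0.0313), and Gohir.A03G208825 (1.59) without WMJJ_ctl 1, WMJJ_ctl 2, SJ2_ctl 1 or SJ2_ctl 3 (adjusted p = 0.0142 to 0.0299).

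The longest lower run had 4 genes on A01. Gohir.A01G188300 had 0, 0.539 and 0.182 in WMJJ_ctl against 9.64, 11.2 and 7.52 in SJ2_ctl, and Gohir.A01G188500 had 0, 0 and 0.306 against 4.85, 6.06 and 6.16. Gohir.A01G188700 was listed at 0 in all 6 WMJJ libraries, against 3.56, 1.48 and 2.70 in SJ2_ctl. Gohir.A01G188750 had 0, 0 and 0.518 against 1.16, 1.39 and 1.72. NemX_ctl was near SJ2_ctl for all 4 genes, for example at 9.07, 6.78 and 9.04 for Gohir.A01G188300. Whether the members of a run share reads through similar sequence was not tested.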

How the data were processed

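Per the labels and the study's methods, the authors ran FastQC 0.11.9 and Trimmomatic 0.39 on paired-end reads, used kallisto 0.46.1 with TM-1 UTx v2.1 transcripts, and imported the estimates per gene (tximport) into edgeR and DESeq2. The authors deposited normalized signal values in 1 table for 54508 genes in 18 libraries; how these were normalized is not given in the sources used here, they lie near CPM with further factors, and no read counts could be recovered from them, so a count model was not used. The study lists read numbers per library, which were not used in a fit. Every column was matched to 1 library by its name. A RefSeq gene table (Gossypium_hirsutum_v2.1) matched 0 identifiers, so no gene names were added, and no sequence is shown.

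In R 4.3.3 with limma 3.58.1, log2(value + 0.5) was fitted with 1 coefficient per group over the 18 libraries (eBayes with intensity trend) for genes with a mean of at least 1; 46813 were tested and 7695 left out. P-values were adjusted by Benjamini-Hochberg within a comparison and calls made at adjusted p below 0.01 and absolute log2 fold change above 1. The p-values weigh a difference of group means against the spread between libraries, estimated over all 6 groups and drawn toward the trend. How that spread relates to single plants is not known. The difference between the uninfested and infested folds was taken from the same fit. Fits were tested on simulated data. Genes named in the text are the 5 annotated ones, the 8 largest called changes each way (higher group mean at least 5, libraries apart), the 4 largest changes in level each way, the 3 largest each way on D02, the 3 largest each way that changed sides, the longest runs and the 3 highest genes each way listed at 0 in 1 group; exceptions are said to be. Members and lists were chosen with earlier results of these data known. Alternatives were pseudocounts of 0.1 and 1, no filter or a mean of at least 5, 3 other scalings, a replicate block, a fit on the compared libraries alone, other thresholds, no trend, and each library left out.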

Additional observations from a re-analysis of the deposited data

Results flagged for a closer look

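For 20 of the named genes the difference between WMJJ and SJ2 itself differed between uninfested and infested roots, by limma on the difference of the 2 log2 fold changes (uninfested minus infested), called at an adjusted p below 0.01 and a size above 1. Over all tested genes 3.95% were called so upward and 1.12% downward. The uninfested libraries enter both this difference and the calls that chose most of these genes.

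In 6 genes the folds had opposite signs and both were called: the difference was 6.27 for Gohir.D03G050800, 5.12 for Gohir.D09G162200, 4.67 for Gohir.D09G048900, -3.44 for Gohir.A05G129700, -2.59 for Gohir.A11G268900 and -2.53 for Gohir.A07G227500. These were chosen for their swing, so the values are a description. The difference passed again for all 6 whichever of the 12 WMJJ and SJ2 libraries was left out, but the change of sides did not always hold. The uninfested call of Gohir.A07G227500 was lost without WMJJ_ctl 1, 2 or 3 or SJ2_ctl 2 or 3. The infested call of Gohir.A11G268900 was lost without WMJJ_rkn 2 or SJ2_rkn 3.

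The difference was 3.58 for Gohir.A01G082700, 3.50 for Gohir.D12G037500, 3.13 for Gohir.D02G189500, 2.85 for Gohir.D09G014700, 2.45 for Gohir.D02G092600, 2.19 for Gohir.D10G056600 and 1.62 for Gohir.D01G218500. For these genes the log2 fold change of WMJJ over SJ2 was larger in uninfested than in infested roots. In infested roots it was below 0 for Gohir.D12G037500 (-0.26) and Gohir.D01G218500 (-0.45), neither called. The difference passed again for all 7 with each of the 12 libraries left out.

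For 7 genes the difference depended on single libraries and on settings. It was 2.26 for Gohir.A06G146800 (adjusted p = 0.00978) and held only without WMJJ_ctl 1, SJ2_ctl 2, WMJJ_rkn 2 or SJ2_rkn 2; without any of the others the adjusted p was 0.0214 to 0.0328. It was also lost with a pseudocount of 0.1 (0.0135) or 1 (0.0102), no filter (0.01), equal library totals (0.0143) or no intensity trend (0.02). It was 2.07 for Gohir.A11G008100 (adjusted p = 0.00448) and was lost without WMJJ_ctl 1, 2 or 3, SJ2_ctl 2, WMJJ_rkn 1 or 3, or SJ2_rkn 1 (0.0101 to 0.0181), with a pseudocount of 0.1 (0.0103) or with no intensity trend (0.0113). It was 1.79 for Gohir.A06G159701 (adjusted p = 0.00308) and was lost without WMJJ_ctl 2 or 3, SJ2_ctl 1, WMJJ_rkn 1 or SJ2_rkn 3 (0.0104 to 0.012) or with no intensity trend (0.0122). It was -4.22 for Gohir.D09G057950 (adjusted p = 0.00454) and was lost without WMJJ_ctl 1 or 2, SJ2_ctl 3 or WMJJ_rkn 1 (0.0111 to 0.0153), with a pseudocount of 0.1 (0.0292) or with no intensity trend (0.014). It was -1.64 for Gohir.D13G229300 (adjusted p = 0.00272) and was lost with a pseudocount of 0.1 (-1.69, adjusted p = 0.184), with no intensity trend (0.011) and without WMJJ_ctl 2 or SJ2_rkn 1 (0.0105 to 0.0113). It was 1.35 for Gohir.A03G209100 (adjusted p = 0.00517) and was lost without WMJJ_ctl 2 or 3, SJ2_ctl 2 or 3, WMJJ_rkn 3, or SJ2_rkn 1 or 3 (0.0102 to 0.0183) or with equal library totals (0.0139). It was 1.23 for Gohir.D05G124900 (adjusted p = 0.00343) and was lost without WMJJ_ctl 1 or 2, SJ2_ctl 1, WMJJ_rkn 3, or SJ2_rkn 1 or 3 (0.0101 to 0.0142), with equal library totals (0.011) or with quantile normalization (0.036).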

How the results depend on the processing

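No named gene with a call changed direction under any alternative, but the balance of directions turned under some. With equal library totals the uninfested calls were 3086 higher and 3637 lower. Without SJ2_rkn 3 the infested calls were 1293 higher and 1160 lower, and the genes called in both treatments 846 higher and 750 lower. Counts in both treatments also turned with no filter (884 and 855), a mean of at least 5 (502 and 499), a pseudocount of 1 (785 and 779) and without SJ2_ctl 2 (749 and 742). With a mean of at least 5, which tests fewer genes, the lower calls in uninfested roots were 1611, the infested calls 757 higher and 877 lower; 63.8% of the uninfested calls were then higher. All other alternatives without a library left out moved these counts by less than 1.5 times. With each library left out in turn, counts ran from 919 to 1293 for infested higher, 1040 to 1312 for infested lower, 655 to 846 for higher in both and 693 to 780 for lower in both. Alternatives chosen after seeing the data, again each library left out, gave 24 to 78 and 2 to 6 for genes that changed sides, 457 to 872 and 130 to 227 for those called alike in NemX_rkn against SJ2_rkn (36 to 53 and 43 to 94 the opposite way), 466 to 595 and 686 to 792 in WMJJ_rkn against NemX_rkn (318 to 583 and 36 to 68 the opposite way), and 80 to 223 and 43 to 92 in NemX_rkn against NemX_ctl; the cause was not tested. Some single calls depended on the setting: that of Gohir.D09G088800 was lost with median-of-ratios scaling, quantile normalization (-0.91) or a fit on the compared libraries alone (adjusted p = 0.0141). The replicate numbers are shared by the groups, and same-numbered WMJJ_ctl and SJ2_ctl libraries deviated together at 0.0815, 0.19 and 0.388. WMJJ_ctl 1 was about as close to SJ2_ctl 2 (0.0842) as to SJ2_ctl 1 (0.0815), which cannot decide whether the numbers are pairs. The main fit did not take them as pairs and had no block. The third libraries did deviate together, at 0.388 in uninfested and 0.292 in infested roots. With other numbers they were at -0.295 to -0.139 and at -0.264 to -0.0736. Whether the third libraries share a batch was not tested. A replicate block gave 3768 higher and 2834 lower uninfested calls, 1314 and 1440 infested calls, and 841 and 867 in both. The values hold no counts, so the reads behind a low value are not known, and a listing at 0 cannot be read as absence.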
